A study of Cyprinus carpio with 18 samples.

Results

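Small RNA libraries of hatching embryos of the common carp (Cyprinus carpio), collected 64 h after fertilization, were compared with libraries of cleavage embryos collected 2 h after fertilization. Each stage had 3 libraries, so the comparison used 6 of the 18 libraries of a series that covers 6 stages. All embryos were wild type, of the FFRC No.2 strain, a variety selected from several carp stocks, and came from natural spawning. The labels give embryo as the tissue, with no dissection or treatment, and describe pooling of RNA within a stage, but whether a stage's 3 libraries stem from different spawnings is not said. The p-values therefore reflect library-to-library spread, which may be technical. The deposited values are read counts of mature microRNAs. Of 2888 microRNAs in the series, 146 carry a carp microRNA name and 2742 are predicted ones identified only by their sequence. The predicted ones were not matched to known microRNAs. Some may be end forms, other arms or further members of named families, and need not be separate from them. All but 2 of the named and 1872 of the predicted ones had counts in the 6 libraries.

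MicroRNAs are RNAs of about the length of a short oligonucleotide that are cut from a hairpin precursor. Loaded into an Argonaute protein, they pair with messenger RNAs, mainly through bases 2 to 8 of their 5′ end (the seed), and lower the stability or translation of those messages. In fish, an embryo at cleavage depends largely on maternal RNA, and by hatching it holds differentiated muscle, brain, sense organs, skin and vessels. Many microRNA families are known from vertebrates for one of these tissues, which is how the lists used here were made. The lists hold named microRNAs only.

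Named microRNAs have no sequence in the tables used here. The predicted ones are their own identifiers, and those the results turn on are shown in DNA letters, 5′ to 3′, with the seed in capitals. The largest rises among those listed in all 3 hatching libraries and in no cleavage library were these.
rise a: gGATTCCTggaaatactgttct
rise b: gCTTTGACgatgttgcactact
rise c: aAAGTGCTatcaagttggggta
rise d: cCTATTCGggatgacttggttc
rise e: gCTCTGACgatgttgcactact
The largest falls among those listed in all 3 cleavage libraries and in no hatching library were these.
fall a: tAGCTTATcagactggtgttggc
fall b: aAGCTGGTggttatagcagtg
fall c: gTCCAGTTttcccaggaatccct
fall d: tGAATGACagtgtagcgatgc
fall e: aATTTAAGttgaggtagagct
The most abundant predicted microRNAs at hatching (late a to c) and, beside fall a, at cleavage (early a and b) were these.
late a: tAAAGCTAgagaaccgaatgta
late b: aCCATCGAccgttgactgtacc
late c: aCCATCGAccgttgattgtacc
early a: gTGTGGAGagccgtttgttac
early b: tAACGGAAcccataatgcagctg

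Depth differed strongly between the stages. The hatching libraries held 6694561, 5039818 and 4964459 counts, and the cleavage libraries 135739, 94306 and 101777 counts. After TMM scaling, a level of 1 CPM (1 count per 1000000 scaled counts) stood for 6.15 to 10.5 counts in hatching libraries and for 0.0893 to 0.214 counts in cleavage libraries, so low levels at cleavage rest on few reads. When each library was thinned to 94306 counts, 446, 406 and 434 microRNAs had a count at hatching and 426, 486 and 289 at cleavage. The stages overlapped in this number (difference of means 28.1, exact two-sided permutation p = 0.8). It does not treat the stages alike, as the listing limit of 5 counts for predicted microRNAs applied before thinning. Thinned hatching libraries thus kept predicted microRNAs at lower counts than cleavage replicate 2, which was already at 94306 counts. With a floor of 5 counts on both sides, which is the listing limit of predicted microRNAs, 190, 185 and 191 were detected at hatching and 327, 464 and 255 at cleavage, without overlap (difference of means -159.9, exact two-sided permutation p = 0.1). With 3 libraries a side, the smallest p that test can give is 0.1.

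The 2 stages had very different leading microRNAs. One microRNA, miR-738, also known from zebrafish, took 0.113%, 0.429% and 0.267% of the counts of hatching libraries, against 37.3%, 47.3% and 76.1% of the counts of cleavage libraries. No hatching library came near any cleavage library. The 5 most abundant named microRNAs at hatching were miR-199-5p, miR-10b, miR-430, miR-10c and miR-181a. At cleavage they were miR-738, miR-26a, miR-143, miR-21 and miR-22a. The 10 most abundant microRNAs of a library held 53.6%, 56.8% and 53.7% of its counts at hatching and 65.3%, 68.5% and 86.0% at cleavage. Without miR-738 the order turned, with 53.7%, 57.1% and 53.9% at hatching against 47.1%, 42.4% and 44.0% at cleavage (exact two-sided permutation p = 0.1 both ways, the smallest possible).

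**Figure D1:**
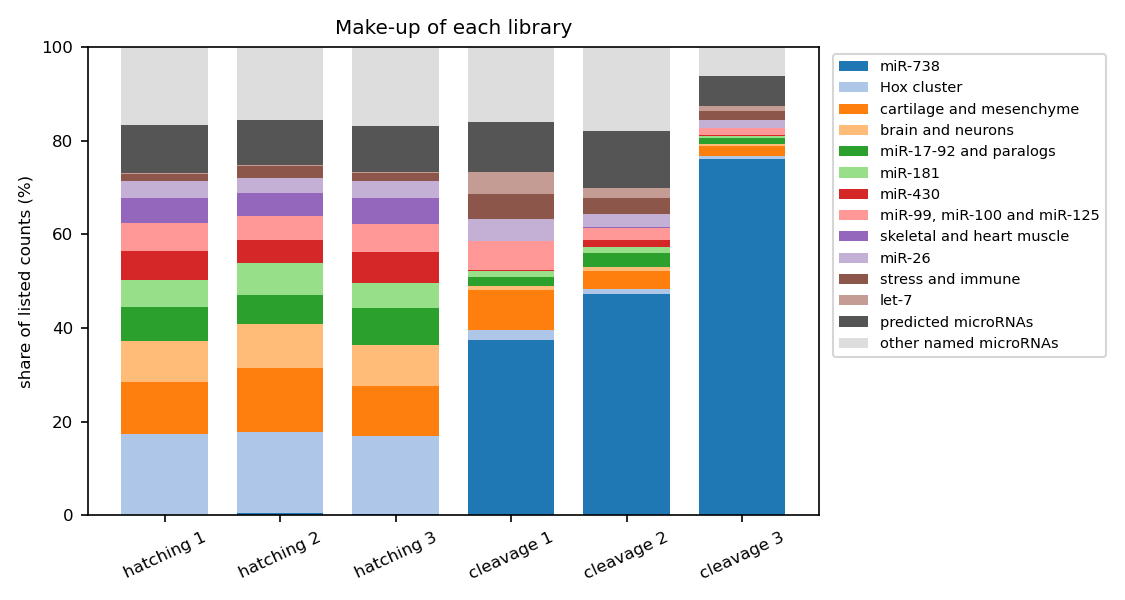
Share of listed counts (%) taken by miR-738, by 11 other family lists, by predicted microRNAs and by all other named microRNAs in each of the 3 hatching and 3 cleavage libraries. The miR-738 block is at most 0.429% of a hatching library and 37.3% to 76.1% of a cleavage library.

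In edgeR's quasi-likelihood test, fitted over 328 microRNAs and all 18 libraries with Benjamini-Hochberg adjustment at 0.05, 80 of the 127 named microRNAs tested passed (63.0%). Of these, 50 rose at hatching (39.4%) and 30 fell (23.6%). Among the 201 predicted microRNAs tested 60.2% passed. Of the 201, 55 rose (27.4%) and 66 fell (32.8%). Of the 55 rises 43 were unlisted at cleavage, and of the 66 falls 31 were unlisted at hatching. These passed the low-count filter through other libraries, so their direction could only go that way. A further 11 of the 201 were unlisted in both stages and could not be called. With 1 library left out the predicted falls numbered 48 (without hatching replicate 1 or 3) to 139 (without gastrulation replicate 1), and with the 2 stages fitted alone 56.9% of 255 predicted microRNAs rose. All 50 named rises and 27 of the 30 named falls had hatching and cleavage libraries that did not overlap. Hatching libraries were all higher for 47.2% of named microRNAs tested and all lower for 22.8%. The median log2 fold change (hatching over cleavage) of named microRNAs was 0.75, and this centre depended on the scaling. It was 0.10 with RLE size factors, -0.11 with TMM factors taken from named microRNAs, 0.51 with library totals and 0.91 with totals implied by the TPM table. The named calls were then 42 up and 39 down, 38 up and 39 down, 41 up and 26 down, and 49 up and 21 down. With TMM's singleton pairing they were 50 up and 27 down. In all 5 of these scalings 38 of the 50 rises and 21 of the 30 falls kept their call. Counting each unlisted predicted microRNA as 4 moved the median to 6.20 and gave 113 named rises and 2 falls (98.3% of named calls up, against 62.5% with zeros as deposited). Directions below are those with zeros as deposited. With the filter redone, the named rises numbered 33 without cleavage replicate 3, and 31, 29 and 32 without hatching replicates 1, 2 and 3. Across the 6 stages, 28 of the 30 falls had their highest stage mean at cleavage, while 23 of the 50 rises had theirs at hatching and 20 in the larva.

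**Figure D2:**
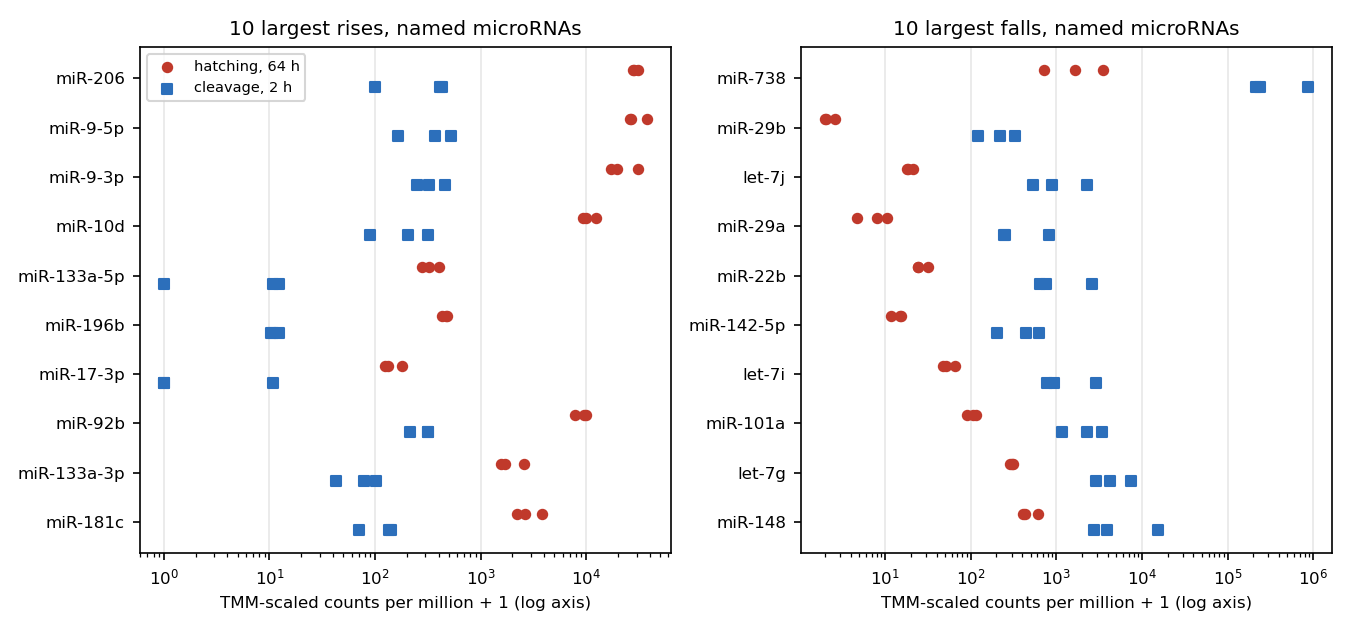
TMM-scaled CPM plus 1 (log axis) in each hatching library (red circles) and each cleavage library (blue squares) for the 10 largest rises and the 10 largest falls among named microRNAs that passed the test without overlap and averaged at least 100 CPM in a stage. In each row the 3 red points lie on one side of the 3 blue points.

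The muscle microRNAs rose together, all 5 of 5 tested, with a median log2 fold change of 4.72 against 0.75 for all named microRNAs. Of all named microRNAs tested, 39.4% rose. In embryos sequenced whole, more cells of a type and more of its RNA per cell cannot be told apart. The largest rise of any named microRNA above 100 CPM was that of miR-206, a microRNA of skeletal muscle. It stood at 27515, 31186 and 28354 CPM in hatching libraries and at 98.1, 433 and 414 CPM in cleavage libraries, far apart and with no overlap. Its log2 fold change was 6.53 ± 0.92 (SE; edgeR adjusted p = 9.93e-05), and 5.33 to 6.85 when any 1 of the 18 libraries was left out. miR-1, which acts in skeletal and heart muscle, had 4050, 5822 and 3611 CPM at hatching and 154, 287 and 146 CPM at cleavage (log2 fold change 4.51 ± 0.66, edgeR adjusted p = 0.000114). Both arms of miR-133a, a partner of miR-1 in muscle, rose by 4.72 (3p) and 5.71 (5p) on the log2 scale. The cleavage libraries held 9, 21 and 7 counts of the 3p arm and 0, 2 and 1 counts of the 5p arm, so the size of the second value is loose. miR-499, hosted in fish and mammals by myosin heavy chain genes, rose by 3.83 ± 1.02 (SE; edgeR adjusted p = 0.00649). With the filter redone its call was lost without cleavage replicate 1 or 3 or any 1 hatching library (2.54 to 3.07), which leaves 4 of the 5.

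Brain microRNAs also rose, 6 of 8 tested beside 39.4% of all named microRNAs tested, with a median of 3.07. miR-9, known from neural progenitors, was the leading member. Its 5p arm had 26148, 37566 and 26394 CPM at hatching and 163, 365 and 526 CPM at cleavage, and its 3p arm 19586, 31208 and 17080 CPM at hatching and 248, 462 and 325 CPM at cleavage. The log2 fold changes were 6.43 ± 0.93 and 6.03 ± 0.88 (SE; edgeR adjusted p = 0.000109 and 0.000114), with no overlap for either arm. miR-153b, miR-153c and miR-218a, the last known from motor neurons, rose by 2.49, 3.65 and 4.06 on the log2 scale. miR-128, of neurons, passed at 1.09 ± 0.34 (SE), a call that was lost with RLE size factors, library totals and named-only TMM factors, and, with the filter redone, without any 1 of the 6 libraries (0.23 to 0.53). The call on miR-153b was lost without hatching replicate 2 with the filter redone (1.49). miR-137 and miR-218b did not pass (0.87 and 1.78, edgeR adjusted p = 0.317 and 0.0807). The entry named miR-124a, a neuronal microRNA, was too low to be tested. It had 28, 29 and 44 counts at hatching and 0, 10 and 2 at cleavage. The entry named miR-138 likewise had 105, 92 and 66 counts at hatching and 0 in every cleavage library. Predicted microRNAs were not searched for further forms of either, so these counts do not give the level of the families.

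The microRNAs encoded within Hox gene clusters, miR-10 and miR-196, formed the largest block at hatching. They rose in 5 of 5 cases (median 3.93), beside 39.4% of all named microRNAs tested. Together the Hox cluster members took 17.3%, 17.3% and 16.7% of the counts of hatching libraries and 2.25%, 1.09% and 0.682% of those of cleavage libraries. miR-10b had 64700, 84336 and 58560 CPM at hatching and 7599, 2205 and 3774 CPM at cleavage (log2 fold change 3.93 ± 0.76, SE; edgeR adjusted p = 0.000814). miR-10d had 9999, 12360 and 9392 CPM at hatching and 88.7, 204 and 314 CPM at cleavage, a log2 fold change of 5.73 ± 0.82 (SE). miR-196b stood at 434, 483 and 466 CPM at hatching and 9.34, 9.73 and 11.2 CPM at cleavage, the last from 2, 2 and 1 counts. miR-10c rose by 3.18 and miR-196a by 1.69, and the call on miR-196a was lost with named-only TMM factors and, with the filter redone, without cleavage replicate 2 or 3 or any 1 hatching library (0.86 to 1.03). How the authors assigned reads shared by near-identical members is not given in the sources used here, so single members of this and other families are uncertain.

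Other tissue lists rose in part. The sensory list holds miR-183, miR-96 and miR-182, a cluster of hair cells and photoreceptors. Of its 4 tested members 3 rose (median 2.65), beside 39.4% of all named microRNAs tested. miR-183 had 14567, 13630 and 12114 CPM at hatching and 3508, 453 and 1097 CPM at cleavage (log2 fold change 2.99 ± 0.74, SE; edgeR adjusted p = 0.00409). miR-182-5p rose by 2.31 and miR-182-3p by 3.83, while miR-96 did not pass (1.53, edgeR adjusted p = 0.118). Without cleavage replicate 1 and with the filter redone, miR-96 passed as a rise (2.29, edgeR adjusted p = 0.0316). The call on miR-182-5p was lost when cleavage replicate 2 or 3 or any hatching library was left out and the filter redone (1.34 to 1.65). miR-184, of lens and cornea, rose by 1.95 ± 0.37 (SE; edgeR adjusted p = 0.000706). Both arms of miR-126, the endothelial microRNA inside Egfl7, passed at 2.02 (3p) and 1.54 (5p). The 5p call did not hold with the replicate number as a block (1.49, edgeR adjusted p = 0.0548), and without cleavage replicate 2 or 3 or any 1 hatching library both arms lost the call with the filter redone (1.20 to 1.32 for 3p, 0.64 to 0.90 for 5p). In the epithelial list, miR-205 of the epidermis rose by 2.11 ± 0.41 (SE; edgeR adjusted p = 0.000863), the sole call among 7 members, whose median of 0.71 was near that of all named microRNAs. miR-200a had 3012, 4759 and 2695 CPM at hatching and 4857, 7587 and 3572 CPM at cleavage, so its groups overlapped. It passed as a fall without cleavage replicate 1 or 3 or any 1 hatching library with the filter redone (-1.69 to -1.30), and with RLE size factors and named-only TMM factors. In the cartilage and mesenchyme list 4 of 7 rose (median 1.47), beside 39.4% of all named microRNAs, and 3 did not pass. Among those 3, miR-143 of smooth muscle had 7813, 8449 and 6832 CPM at hatching and 30238, 11870 and 14983 CPM at cleavage, lower in every hatching library (log2 fold change -1.31, edgeR adjusted p = 0.120). It passed as a fall with RLE size factors and named-only TMM factors, and without cleavage replicate 2 or 3 with the filter redone (-2.12 and -2.08). Of those 4, miR-140-3p, miR-140-5p and miR-455 lost the call in some of the 5 scalings and miR-199-5p in none. With the filter redone, miR-140-3p also lost it without any 1 of the 6 libraries (0.48 to 0.85), and miR-140-5p and miR-455 without cleavage replicate 1 or 3 or any 1 hatching library (0.80 to 1.40 and 0.88 to 1.39).

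miR-430, which in zebrafish marks maternal messages for clearance when the embryo's own transcription starts, was higher at hatching. It had 38215, 40479 and 40568 CPM at hatching and 2209, 7120 and 1982 CPM at cleavage. Cleavage replicate 2 stood above the other two, and all 3 were below every hatching library. The log2 fold change was 3.40 ± 0.72 (SE; edgeR adjusted p = 0.00167) and ranged from 2.30 to 4.25 when 1 library was left out. Among the miR-17-92 microRNAs and their paralogs, which act in growth and proliferation, 6 of 12 tested rose and 1 fell (median 1.36), beside 39.4% and 23.6% of all named microRNAs tested. miR-363, miR-92b and miR-92a rose by 2.90, 5.02 and 1.81 on the log2 scale, and miR-19d fell by 1.70 on that scale. These are named members only. Predicted microRNAs were not searched for further members of these families or of miR-30, so miR-19d does not stand for all miR-19 forms. miR-17-5p, also among the 6, lost its call with the replicate number as a block (1.55, edgeR adjusted p = 0.0507) and, with the filter redone, without any 1 of the 6 libraries (0.39 to 1.21). All 3 named miR-181 members rose, beside 39.4% of all named microRNAs tested. The log2 fold changes of miR-181a, miR-181b and miR-181c were 2.54, 3.19 and 4.64. Of the 2 named miR-30 members, miR-30d had 17585, 27678 and 19043 CPM at hatching and 7580, 6779 and 6013 CPM at cleavage. Its log2 fold change was 1.66 ± 0.28 (SE; edgeR adjusted p = 0.000262), a call lost without hatching replicate 2 with the filter redone (0.69). miR-30b did not pass (-0.62, edgeR adjusted p = 0.229), but passed as a fall without cleavage replicate 1 or 3 or hatching replicate 2 with the filter redone (-1.73 to -1.58). miR-221 and miR-222, which are encoded side by side, rose by 1.96 and 3.59. The call on miR-221 was lost without hatching replicate 1 or 2 with the filter redone (1.27 and 0.91). miR-489 and miR-730 had no count in any cleavage library and 503 and 296 counts over the hatching libraries. Set against a floor of 3 counts over the cleavage stage, they were at least 3.44-fold and at least 2.03-fold higher. The call on miR-489 was lost without any 1 of the 6 libraries and that on miR-730 without any 1 cleavage library, with the filter redone.

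**Figure D3:**
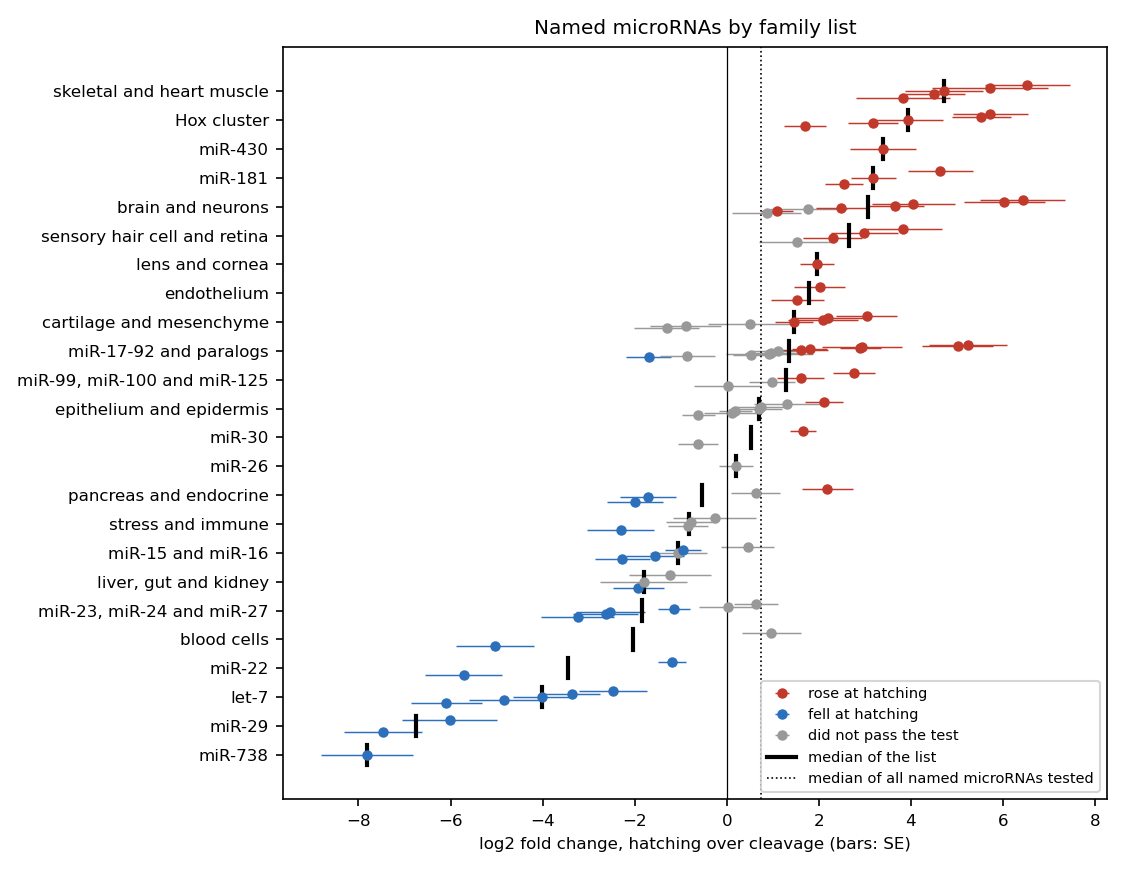
Log2 fold change, hatching over cleavage, of each tested member of 24 family lists (points, with SE bars), coloured by the result of the edgeR test, with the median of each list (black tick) and the median of all named microRNAs tested (dotted line, 0.75). Muscle and Hox cluster members lie to the right, let-7, miR-29 and miR-738 to the left.

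The largest fall of any named microRNA was that of miR-738 itself, with 721, 3513 and 1634 CPM at hatching and 236791, 217148 and 866833 CPM at cleavage. Its log2 fold change was -7.81 ± 1.00 (SE; edgeR adjusted p = 4.72e-05) and -9.27 to -6.86 when 1 library was left out. Cleavage replicate 3 held the most of it in each measure.

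All 5 named let-7 members fell (median -4.01), beside 23.6% of all named microRNAs tested. Predicted microRNAs were not searched for let-7 forms, so this does not cover the whole family. All 5 calls held in each of the 5 other scalings, but with unlisted predicted microRNAs counted as 4 the let-7 median was 1.50, below the 6.20 of all named microRNAs. let-7, found in Caenorhabditis elegans as a timer of late development, promotes differentiation in many animals. let-7a, its most abundant member, had 771, 713 and 689 CPM at hatching and 11990, 4998 and 5397 CPM at cleavage, with no overlap (log2 fold change -3.36 ± 0.60, SE; edgeR adjusted p = 0.000456). let-7g had 314, 301 and 290 CPM at hatching and 7459, 2915 and 4199 CPM at cleavage (log2 fold change -4.01 ± 0.63, SE). let-7b, let-7i and let-7j fell by 2.47, 4.84 and 6.09 on the log2 scale. The share of counts of the 5 named members together was 0.256%, 0.186% and 0.238% at hatching and 4.62%, 2.27% and 1.13% at cleavage. Of the counts other than miR-738 it was 0.256%, 0.187% and 0.239% at hatching and 7.37%, 4.31% and 4.73% at cleavage.

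Both named miR-29 members fell as well, beside 23.6% of all named microRNAs tested. In mammals miR-29 represses collagens and DNA methyltransferases. miR-29b was counted 11, 6 and 13 times in hatching libraries and 47, 25 and 29 times in cleavage libraries, although the hatching libraries were far deeper. That is 1.05, 0.976 and 1.60 CPM at hatching and 219.5, 121.7 and 324.7 CPM at cleavage (log2 fold change -7.47 ± 0.85, SE; edgeR adjusted p = 2.96e-05). miR-29a fell by 6.02 on the log2 scale. miR-101a, which targets the histone methyltransferase EZH2 in human cells, had 106, 114 and 89.9 CPM at hatching and 2284, 3382 and 1176 CPM at cleavage (log2 fold change -4.46 ± 0.56, SE; edgeR adjusted p = 4.72e-05). miR-148 fell by 3.93 ± 0.65 on the log2 scale. In cleavage replicate 1 it reached 15511 CPM, against 2750 and 3863 CPM in the other two.

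The 2 named forms of miR-22 fell to different extents, beside 23.6% of all named microRNAs tested that fell. miR-22b had 23.0, 30.4 and 23.0 CPM at hatching and 2616, 638 and 761 CPM at cleavage (log2 fold change -5.71 ± 0.83, SE). miR-22a had 5451, 7566 and 4950 CPM at hatching and 9981, 17807 and 13146 CPM at cleavage (log2 fold change -1.19 ± 0.31, SE; edgeR adjusted p = 0.00535), a call that was lost with totals implied by the TPM table. miR-142-5p, of blood cells, fell by 5.03 ± 0.84 (SE; edgeR adjusted p = 0.000272). Its 3p partner was listed at 0 in all libraries, and miR-144 of red blood cells did not pass (0.97, edgeR adjusted p = 0.205). miR-142-5p was counted 136, 42 and 39 times at cleavage.

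From clusters of miR-23, miR-24 and miR-27, 4 of 6 tested members fell (median -1.84), beside 23.6% of all named microRNAs tested. Among the 4, miR-24 fell by 2.53, miR-23a by 2.63 and miR-27a by 3.24 on the log2 scale. miR-24 had 266, 307 and 245 CPM at hatching and 3321, 457 and 941 CPM at cleavage. Its abundant relative miR-27d overlapped between stages (0.63, edgeR adjusted p = 0.261). Among miR-15 and miR-16, which restrain the cell cycle in human cells, 3 of 5 named members fell (median -1.05), beside 23.6% of all named microRNAs tested. Across the 5 other scalings, 1 to 4 of them fell. miR-15a passed narrowly, with overlap between the stages (log2 fold change -1.56, edgeR adjusted p = 0.0461), and kept its call in 4 of those 5 scalings. miR-16b was close to the threshold (-0.95, edgeR adjusted p = 0.0489) and missed it with the replicate number as a block (-0.94, edgeR adjusted p = 0.0680), and without cleavage replicate 3 or any hatching library over the same microRNAs (-1.08 to -0.86). miR-16c fell by 2.27 ± 0.59 (SE).

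The named microRNAs of digestive organs did not rise as a group. Predicted microRNAs were not searched for further members of these families. miR-122 of the liver had 286, 300 and 293 CPM at hatching and 1504, 925 and 896 CPM at cleavage (log2 fold change -1.92 ± 0.56, SE; edgeR adjusted p = 0.00952). miR-192 and miR-194 of gut, liver and kidney did not pass (-1.23 and -1.81, edgeR adjusted p = 0.242 and 0.107). miR-194 passed as a fall without cleavage replicate 1 (-3.04, edgeR adjusted p = 0.0322) and with RLE size factors and named-only TMM factors (-2.49 and -2.70). Of the 4 tested named members of the pancreatic and endocrine list 1 rose and 2 fell, beside 39.4% and 23.6% of all named microRNAs tested. Among the 4, miR-217 rose by 2.19 and miR-375 of islets fell by 1.71 on the log2 scale. Both calls were sensitive: miR-217 was lost without cleavage replicate 1 or 3 or any 1 hatching library with the filter redone (1.00 to 1.43) and miR-375 without any 1 hatching library over the same microRNAs (-1.81 to -1.65). The injury and immune microRNAs miR-21 and miR-146a did not pass (-0.85 and -0.78), with overlap between the stages. They passed as falls with RLE size factors (-1.49 and -1.46) and named-only TMM factors (-1.64 and -1.63). With the filter redone miR-21 passed as a fall without any 1 of the 6 libraries (-2.03 to -1.10) and miR-146a without cleavage replicate 1 or 2 or hatching replicate 2 (-2.08 to -1.57). miR-155 of the same list fell by 2.30 on the log2 scale (edgeR adjusted p = 0.0150), a call lost with totals implied by the TPM table and, over the same microRNAs, without hatching replicate 1 or 3 (-2.13 and -2.24). miR-99 and miR-26a showed no call and changed sign with the scaling. miR-100 passed at 1.61 but not with RLE size factors (1.04), library totals (1.56) or named-only TMM factors (0.83), nor without any 1 of the 6 libraries with the filter redone (0.80 to 1.22).

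Shares of counts need no scaling factor, but at cleavage they depend on the large share of miR-738. For 17 of the 24 lists the hatching and cleavage libraries did not overlap in their share, which in an exact two-sided permutation test gives p = 0.1, or 0.141 after adjustment over 24 lists. Of all named microRNAs tested singly, 70.1% did not overlap in CPM, a share near that of the lists. Thus no list could pass 0.05 by this test. Lists higher at hatching included muscle (5.31%, 4.92% and 5.56% at hatching against 0.0471%, 0.188% and 0.0580% at cleavage) and brain (8.72%, 9.35% and 8.75% at hatching against 0.711%, 0.858% and 0.447% at cleavage). Lists lower at hatching included miR-29 and let-7. The epithelial share overlapped, at 2.21%, 2.40% and 2.07% at hatching and 1.49%, 3.81% and 0.714% at cleavage. As shares of the counts other than miR-738, the lists that overlapped changed. The cartilage and mesenchyme list and miR-30 then overlapped (exact two-sided permutation p = 0.4 and 0.3). The pancreatic and endocrine list, miR-23, miR-24 and miR-27, miR-15 and miR-16, miR-26, and the injury and immune list no longer did. These were lower at hatching (exact two-sided permutation p = 0.1 each).

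The 2 arms of one hairpin did not always change alike, and their ratio within a library is free of scaling. Of 14 hairpins with both arms named, 10 had counts of both arms at hatching and at least 30 counts at cleavage, a minimum set after the counts were seen. Of these 10, 3 had no overlap between stages in the log2 ratio of 5p to 3p counts (exact two-sided permutation p = 0.1 each, 0.333 after adjustment over 10 pairs). For miR-199, known from mesenchyme and skeletal tissue, the ratio was 5.07, 5.36 and 4.99 at hatching and 0.94, 1.31 and 2.16 at cleavage. There the 5p arm rose by 3.05 ± 0.66 (SE; edgeR adjusted p = 0.00199) while the 3p arm had a log2 fold change of -0.89 ± 0.77 (edgeR adjusted p = 0.319). For miR-17 the ratio was 2.21, 2.68 and 2.08 at hatching and 5.88, 4.75 and 5.73 at cleavage. Its 3p arm had 1385, 1106 and 999 counts at hatching and 0, 2 and 0 at cleavage, a scaled ratio of 35.8 with an exact 95% counting interval of 9.91 to 296. For miR-27c the ratio was -4.80, -4.40 and -4.63 at hatching and -5.91, -5.82 and -5.57 at cleavage. The cleavage values rest on 2 counts of miR-17-3p and 6 counts of miR-27c-5p. miR-459 and miR-460, with 7 and 3 cleavage counts in all, fell below that minimum. Over all 14 hairpins 5 had no overlap, with miR-459 and miR-460 among them (exact two-sided permutation p = 0.1 each, 0.28 after adjustment over 14 pairs).

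**Figure D4:**
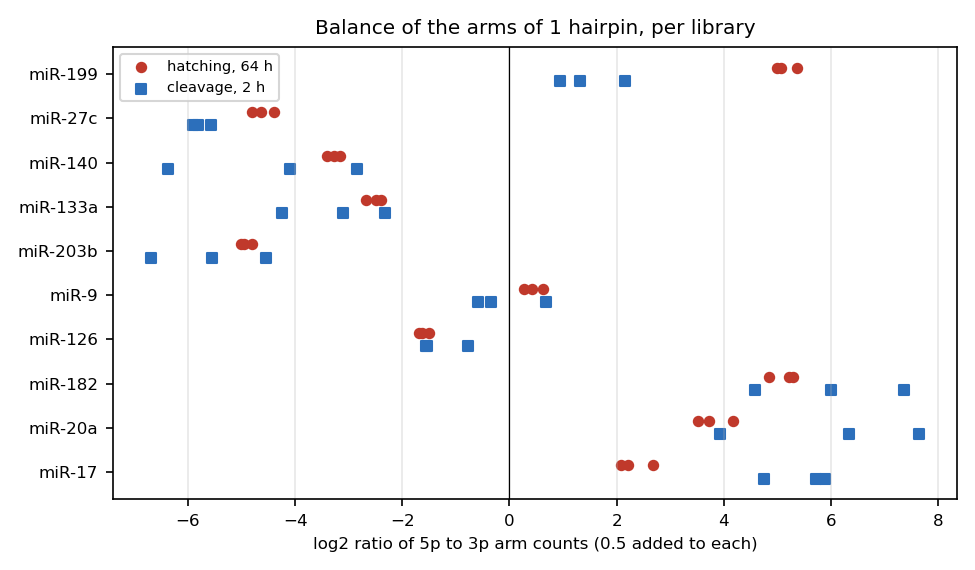
Log2 ratio of 5p to 3p arm counts (0.5 added to each) in each hatching library (red circles) and cleavage library (blue squares), for the 10 hairpins with counts of both arms at hatching and at least 30 counts of both arms together at cleavage. The stages are separate for miR-199, miR-27c and miR-17 and overlap for the others.

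Predicted microRNAs took 10.2%, 9.74% and 9.86% of the counts of hatching libraries and 10.7%, 12.2% and 6.30% of those of cleavage libraries, with overlap. A predicted microRNA is listed in a library only from 5 counts up. If that limit alone left it out, a missing one has up to 4 counts. Where another end variant was listed in its place, as described below, its own reads are not known. Folds against an unlisted stage were taken against 12 counts over its 3 libraries, and are lower bounds only if the limit alone applied. Rise a had 39501, 23656 and 23643 counts at hatching and none listed at cleavage, at least 148-fold higher by this measure. Rises b to e were at least 63.3-, 41.9-, 40.0- and 29.6-fold higher by the same measure. The call on rise c (edgeR adjusted p = 0.0459) did not hold with the replicate number as a block (edgeR adjusted p = 0.0551), nor without any 1 hatching or cleavage library (edgeR adjusted p = 0.0676 to 0.128). Rises b and e have the same length and differ by T4C, with the base of rise b first and positions counted from 1 at the 5′ end, so the difference lies within the seed. Fall a had 2969, 201 and 346 counts at cleavage and none listed at hatching, at least 14273-fold lower by the same measure. Another predicted microRNA tested, which differs from fall a only in its last bases, was listed at both stages. It had 29332 counts at hatching and 303 at cleavage and was not called (log2 fold change 0.93, edgeR adjusted p = 0.143). The fold of fall a is thus that of 1 listed sequence. Falls b to e were at least 2107-, 1429-, 731- and 544-fold lower. All 3 cleavage libraries listed each of these 5, with cleavage replicate 1 far above the others for fall a. The first bases of rise a are the reverse complement of a stretch near the 3′ end of fall c. Whether they are arms of the same hairpin was not tested, so these rises and falls may not all be separate microRNAs.

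Apart from fall a, the abundant predicted microRNAs were listed in both stages. Late a had 77882, 52132 and 63595 counts at hatching and 0, 20 and 16 at cleavage (log2 fold change 6.49 ± 1.29, SE; edgeR adjusted p = 0.00099). Late b and c share the seed CCATCGA with 2 further predicted microRNAs tested. All 4 rose, beside 27.4% rising among all predicted microRNAs tested. The 4 differ by few bases, and how reads shared by them were assigned is not stated. Together they took 2.28%, 2.20% and 2.11% of hatching counts and 0.0516%, 0.0668% and 0.0236% of cleavage counts. Those 2 further sequences are these, of which further b was listed in no cleavage library and could only rise.
CCATCGA further a: aCCATCGAccgttgattgtgcc
CCATCGA further b: aCCATCGAccgttggctgtgccc
The seed AAGTGCT of rise c was found in 27 predicted microRNAs of the series. Of these, 12 were tested, 2 rose and 0 fell, beside 27.4% rising among all predicted microRNAs tested. Of the 12, 1 was unlisted in both stages. Most of the others, the 2 rises among them, were unlisted at cleavage and could not fall. The 2 rises are end variants of the same group, of which no variant was listed at cleavage. That group rose when summed (log2 fold change 14.9, edgeR adjusted p = 0.00137), the only direction open to it. Together the 27 took 0.186%, 0.272% and 0.328% of hatching counts and 0%, 0.0170% and 0% of cleavage counts. Early a had 395, 686 and 775 counts at hatching and 2086, 3033 and 1870 counts at cleavage, a log2 fold change of -7.54 ± 0.65 (SE; edgeR adjusted p = 8.07e-06). Early b had 1103, 714 and 946 counts at hatching and 904, 573 and 381 at cleavage, a log2 fold change of -5.06 ± 0.44 (SE; edgeR adjusted p = 3.61e-06).

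Predicted microRNAs of the 2 stages differed in length. Of their counts, 72.3%, 66.1% and 73.0% fell on sequences of 22 bases at hatching, against 17.0%, 19.4% and 9.47% at cleavage. Sequences of 21 bases took 4.64%, 3.95% and 4.48% at hatching and 30.9%, 44.5% and 48.3% at cleavage. Without early a, which has 21 bases, they took 4.59%, 3.81% and 4.33% at hatching and 19.4%, 24.7% and 27.1% at cleavage. Counting each listed sequence once, 18.2%, 19.4% and 19.2% had 21 bases at hatching and 17.9%, 17.7% and 20.1% at cleavage, with overlap. By the same count, 54.4%, 51.5% and 53.1% had 22 bases at hatching and 27.6%, 28.9% and 23.1% at cleavage. When hatching libraries were thinned to 110607 counts and predicted ones under 5 counts dropped, the share of counts on 22 bases was 71.3% ± 4.36 at hatching and 15.3% ± 5.20 at cleavage (SD, n = 3 each; exact two-sided permutation p = 0.1, the smallest possible). The GC content weighted by counts was 46.5%, 46.3% and 46.3% at hatching and 52.7%, 49.2% and 51.2% at cleavage.

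**Figure D5:**
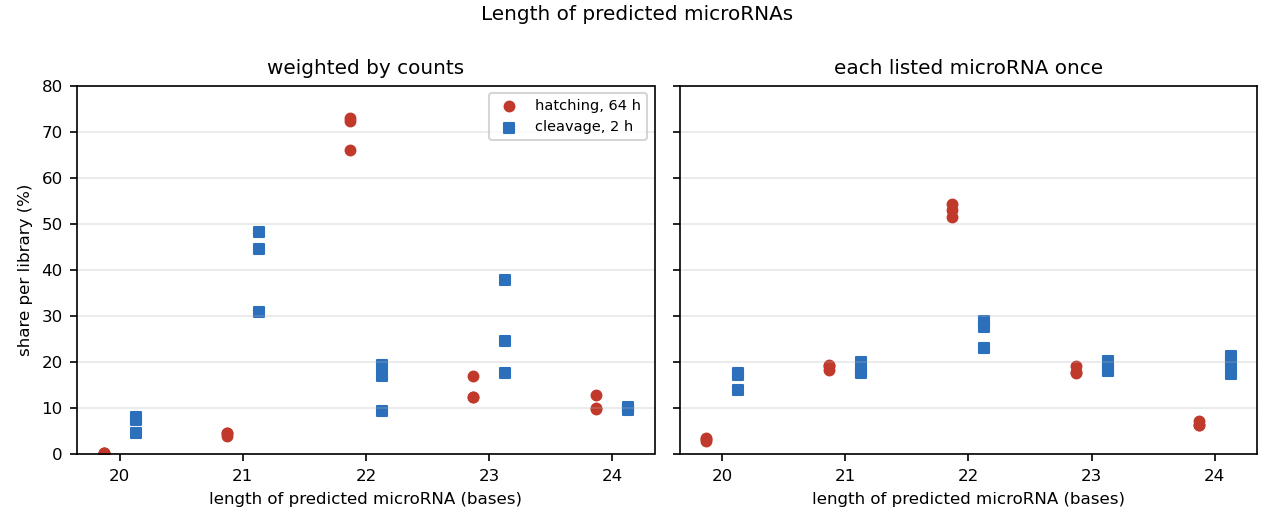
Share (%) of predicted microRNAs with 20 to 24 bases in each hatching library (red circles) and cleavage library (blue squares), weighted by counts (left) and with each listed sequence counted once (right). At 22 bases the hatching libraries lie between 66.1% and 73.0% of counts and the cleavage libraries between 9.47% and 19.4%.

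Predicted sequences that differ by bases at their ends only were usually listed one per library, and this touches the calls. Among predicted microRNAs there were 374 groups of such end variants (shared stretch of at least 16 bases, 5′ ends at most 4 bases apart), holding 869 sequences. In 1855 of 2035 combinations of a group and a library with a listed variant, exactly 1 variant was listed (91.2%). In some groups the stages listed different variants, as in these 3 pairs, where a base in capitals is one the other variant lacks.
pair a, first: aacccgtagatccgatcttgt
pair a, second: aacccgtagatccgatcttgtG
pair b, first: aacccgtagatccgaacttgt
pair b, second: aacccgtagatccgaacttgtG
pair c, first: gtttttttaggttttgattttT
pair c, second: gtttttttaggttttgatttt
In pair a the first variant had no listed count at hatching and 17, 10 and 0 counts at cleavage, and was called as a fall. The second had 579, 343 and 408 counts at hatching and none at cleavage, and was called as a rise. With the variants of the group summed, the log2 fold change was 0.14 (edgeR adjusted p = 0.955). In pair b the first variant had 0, 0 and 0 counts at hatching and 19, 14 and 6 at cleavage, and the second 125, 69 and 79 at hatching and none at cleavage. The call on the first as a fall was lost after summing (-2.44, edgeR adjusted p = 0.111). In pair c the first had 0, 0 and 0 counts at hatching and 7, 22 and 6 at cleavage, the second up to 189 at hatching, where all 3 libraries listed it, and none at cleavage, and the call was also lost (-1.42, edgeR adjusted p = 0.204). Over all predicted microRNAs, summing kept 52 of 55 rises and 59 of 66 falls and turned none round, while 13 uncalled ones became rises and 11 became falls. Named calls were then 57 up and 25 down, with a median of 1.07. None of the 5 largest rises or falls was among the calls lost. Fall a and the sequence that differs from it in its last bases were not summed, as their 3′ ends do not match.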

How the data were processed

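Small RNA of carp embryos was sequenced, per the labels' protocols, as 50 bp single-end reads from libraries of RNA pooled by stage. For each library the authors deposited raw, unnormalized counts of mature microRNAs, as whole numbers, and a TPM table of the series. TPM values were proportional to the deposited counts to within 0.00382%, with no length term, and served only for the library totals they imply. FastQC and edgeR were used, per the submitters' processing notes. The aligner, the genome build, the prediction program and the handling of shared reads are unstated in the labels. Named microRNAs are listed with their zeros. Predicted ones are listed from 5 counts up in a library and were taken as 0 otherwise.

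TMM scaling, a low-count filter (filterByExpr on stage, minimum 10) and edgeR 4.0.16's quasi-likelihood test (robust glmQLFit, with limma 3.58.1 in R 4.3.3) were applied to the 18 libraries together. The model had 1 mean per stage and left 12 residual degrees of freedom. The common biological variation coefficient was 0.855. Adjusted p-values are Benjamini-Hochberg values over the 328 microRNAs tested, with a threshold of 0.05. Each standard error is the size of the log2 fold change divided by the root of its F value. DESeq2 1.42.0 was an alternative. Shares, arm ratios and numbers detected (mean of 20 thinned draws) were compared with exact two-sided permutation tests over 20 splits in Python 3.11.15 with numpy 2.4.6, scipy 1.17.1 and pandas 2.3.3, and matplotlib 3.10.9 drew the figures. Counting intervals (exact, 95%) and floors describe counting error alone, as PCR copies were not marked by molecular identifiers. Counts were also simulated at these library sizes, with 282 microRNAs tested. The fit called 93.6% of those changed by a log2 of 4, 33.3% of those changed by 2 and 1.07% of the unchanged ones. The simulation had a smaller spread than these data, a single mean profile for all stages and no shift like that of miR-738. Its rates therefore check the fit and do not give the error rate or power of this comparison.

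Replicates of a stage differed beyond sampling noise (chi-square per degree of freedom at least 50.5 between hatching libraries and 68.0 between cleavage libraries), so no library was treated as a second deposit of another. This does not show that they are biologically separate. The replicate numbers come from the titles. Deviations of same-numbered libraries from their stage means correlated over the microRNAs tested at 0.148, 0.138 and 0.356, all above 0.1, so a fit with the number as a block is given beside a result where it changes the call. Named in the text by rule were the 10 largest rises and falls (named microRNAs, mean of at least 100 CPM in a stage, no overlap), the 2 most abundant members of each of 24 lists, the 5 most abundant per stage, and for predicted ones the 5 largest rises and falls and the 3 most abundant per stage. Any others are named to complete a list or an arm pair, or were chosen after their values were seen. The lists follow microRNA families known from vertebrates, and members and lists were chosen with earlier results of these data known.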

Additional observations from a re-analysis of the deposited data

Results flagged for a closer look

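The TPM table of the series implies library totals that exceed the listed counts. The excess was 2.57%, 2.58% and 2.69% in hatching replicates 1, 2 and 3, against 23.5%, 31.9% and 50.8% in cleavage replicates 1, 2 and 3. The excess stood out because it lies outside the listed microRNAs, which all comparisons rest on. It was used only as an alternative total. With these totals as denominator, predicted microRNAs took 9.97%, 9.49% and 9.60% of hatching libraries and 8.70%, 9.25% and 4.18% of cleavage libraries, without overlap, whereas their shares of listed counts overlapped. What the excess holds was not tested.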

How the results depend on the processing

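Counts of calls moved most with the handling of low values. With no filter 112 microRNAs were called, with 27 named rises, 12 named falls and 26 predicted rises (0.948% of predicted ones tested, against 27.4% in the report). With unlisted predicted microRNAs counted as 4, 613 were called, with 113 named rises, 2 named falls, 462 predicted rises (16.8%) and 36 predicted falls. Under that setting the sign turned for miR-142-5p (0.56), let-7i (0.55), miR-101a (0.94), let-7g (1.50), miR-148 (1.42), let-7a (2.10), let-7b (2.96), miR-200a (4.79), miR-192 (4.44), miR-122 (3.57), miR-375 (3.77), miR-143 (4.17), miR-22a (4.33), miR-24 (2.87), miR-16b (4.65), miR-16c (3.20), miR-30b (4.76), miR-21 (4.53), miR-146a (4.77), miR-155 (3.20), miR-19d (3.86), miR-23a (2.83), miR-27a (2.18), miR-194 (3.65), miR-199-3p (4.43) and early b (0.53), all on the log2 scale against a named median of 6.20. Predicted falls numbered 116 with at least 10 CPM in 3 libraries, and predicted rises made up 56.9% of the 255 tested when the 2 stages were fitted alone and 25.2% (34 rises) when hatching was thinned to cleavage depth. Named falls numbered 47 when named microRNAs were fitted alone. Summing end variants, an alternative chosen after seeing the data, is described in the report.

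Leaving out 1 of the 18 libraries gave 29 to 53 named rises, 36 to 58 predicted rises (13.3% to 28.4% of those tested, lowest without hatching replicate 3) and 48 to 139 predicted falls (lowest without hatching replicate 1 or 3 over the same microRNAs, highest without gastrulation replicate 1). The uncalled microRNAs miR-99 (-0.86 to 0.33), miR-27d (-0.25 to 0.97), miR-26a (-0.60 to 0.52) and miR-137 (-0.27 to 1.84) changed sign among these fits. miR-99 was also negative with RLE size factors (-0.54), library totals (-0.065), named-only TMM factors (-0.73), no filter (-0.14), at least 10 CPM (-0.59), the replicate block (-0.015), named microRNAs alone (-0.85), thinning (-0.82) and DESeq2 (-0.54). miR-26a was so with RLE (-0.36), named-only factors (-0.57), at least 10 CPM (-0.42), named microRNAs alone (-0.72), thinning (-0.67) and DESeq2 (-0.36). miR-27d was so with named-only factors (-0.11), named alone (-0.23) and thinning (-0.19), miR-137 with named alone (-0.21) and thinning (-0.44), and miR-144 with thinning (-0.18). The cause of these changes was not tested.

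With the replicate number as a block, 48 named microRNAs rose and 24 fell, and 55 predicted ones rose and 56 fell. Among microRNAs named in the text it changed the call of miR-126-5p, miR-16b, miR-17-5p and rise c, given beside their results, and no other.

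Of the shares (hatching minus cleavage, in percentage points), that of predicted microRNAs was -0.0402 after thinning and -1.53 to 1.42 with 1 library left out. That of the 10 most abundant microRNAs was 10.4 without miR-738. Without miR-738 the difference was -1.04 for miR-99, miR-100 and miR-125, -1.97 for the epithelial list and -3.23 for miR-26. For miR-23, miR-24 and miR-27 it was 0.0632 with totals implied by the TPM table. With 1 library left out it ranged from -0.428 to 1.12 for the epithelial list, from -0.733 to 0.494 for miR-23, miR-24 and miR-27 and from -0.226 to 1.21 for miR-26. The difference in the number of microRNAs detected was -159.9 with at least 5 counts, -26.0 at the lowest total of all 18 libraries, and -27.6 to 71.0 with 1 library left out. Depth at cleavage limits every value that rests on few counts there.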

Other observations

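Among predicted microRNAs, sequences with 5 G in a row held 0.0257%, 0.0124% and 0.0116% of counts in hatching libraries and 7.25%, 0.261% and 0.405% in cleavage libraries, so 1 cleavage library stood apart. Counting each listed sequence once, 50.8%, 51.1% and 50.6% began with T at hatching and 64.0%, 65.4% and 59.2% at cleavage. Weighted by counts, the share beginning with T was 53.9%, 57.7% and 55.3% at hatching and 58.5%, 48.6% and 40.0% at cleavage, with overlap.

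Over their 3 libraries, cleavage counts of the leading rises were small beside those at hatching. miR-206 had 711455 counts at hatching and 147 at cleavage, which is 0.0207% of the hatching number. miR-9-5p had 720392 counts at hatching and 157 at cleavage, or 0.0218%. miR-10d had 257465 counts at hatching and 89 at cleavage, or 0.0346%.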
